A study of Mus musculus with 6 samples.

Results

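Elastic fibres give the lung its recoil. Their core is elastin, which is secreted as soluble tropoelastin, laid down on a scaffold of fibrillin microfibrils, guided there by fibulins and fixed by lysyl oxidases that crosslink its lysines. In the developing lung the fibres are made chiefly by myofibroblasts, smooth muscle cells and other mesenchymal cells rather than by the epithelium. The elastic fibre assembly genes examined here were elastin (Eln), the fibrillins Fbn1 and Fbn2, the fibulins Fbln1 and Fbln5, the crosslinking enzymes Lox and Loxl1, and the microfibril-associated proteins Mfap2, Mfap4 and Mfap5. They were chosen by name, and every probe set whose only gene symbol in the platform annotation was one of these 10 names was taken. That gave 19 probe sets of 9 genes among 45037 probe sets and 18193 genes; no probe set carried Fbn1 as its only symbol, and Fbn1 was not analysed here.

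The samples were whole mouse lungs at E18.5 (embryonic day), close to birth, on a mixed background of the FVB/N strain and B6. In 3 of them, called Scap_ko, the gene for SREBP cleavage-activating protein (Scap) had been deleted in respiratory epithelial cells, and the other 3 were controls. Scap escorts the SREBP transcription factors of lipid synthesis to the Golgi, where they are activated, and the series title names alveolar type II cells and pulmonary lipofibroblasts. The sources used here do not give the driver of the deletion or the alleles of the controls. The comparison bears on mesenchymal matrix genes in lungs whose epithelium carries the deletion. In whole lung, fewer cells of a type and less RNA per cell cannot be told apart.

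Scap acts through SREBPs, which bind E-boxes and sterol regulatory elements in DNA. The promoters of the measured genes were searched for in the RefSeq promoter table of build GRCm38.p6. The deletion was in epithelial cells, whereas the fibres are made chiefly by mesenchymal cells. Whether SREBPs act on these genes was not tested. Windows of listed genes on a chromosome left out of the search were not read. A gene without a window here may still be in the table. Promoters were taken for 3 of the 9 genes: Fbln1, Fbln5 and Mfap2. They are printed so that their letters can be read beside the signals of these genes. For each gene the 250 bases before its most upstream start in the table are given, 5′ to 3′ on the gene's strand. Capitals mark matches on either strand to any of the motifs searched, and no matches overlapped. One motif was the E-box, spelled CANNTG. Another was the GC box, which reads GGGCGG. The TATA box was searched as TATAAA. The core of the sterol regulatory element was searched as TCACNCCAC. The windows are chr15:85205699-85205948 (+ strand) for Fbln1, chr12:101819120-101819369 (- strand) for Fbln5 and chr4:141010174-141010423 (+ strand) for Mfap2.
Fbln1: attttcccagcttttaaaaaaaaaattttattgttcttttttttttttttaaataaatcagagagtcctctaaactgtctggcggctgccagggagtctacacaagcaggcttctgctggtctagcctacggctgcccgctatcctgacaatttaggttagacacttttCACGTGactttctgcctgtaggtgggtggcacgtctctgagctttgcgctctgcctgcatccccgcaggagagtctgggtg
Fbln5: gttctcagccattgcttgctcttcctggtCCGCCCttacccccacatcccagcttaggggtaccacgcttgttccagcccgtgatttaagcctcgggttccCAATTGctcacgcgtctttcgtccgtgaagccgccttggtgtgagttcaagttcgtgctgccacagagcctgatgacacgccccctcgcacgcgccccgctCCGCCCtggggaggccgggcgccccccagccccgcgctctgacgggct
Mfap2: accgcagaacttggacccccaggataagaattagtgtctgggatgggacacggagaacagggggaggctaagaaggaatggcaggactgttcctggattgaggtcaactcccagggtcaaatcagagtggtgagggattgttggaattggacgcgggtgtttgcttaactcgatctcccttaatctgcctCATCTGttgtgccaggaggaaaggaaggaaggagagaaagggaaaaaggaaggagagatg
Each window holds 1 E-box, as 66.2% of the 32851 windows of that length in the table hold at least 1. The Fbln5 window also holds 2 GC boxes, which 32.7% of windows have. None of the 3 holds a TATA box (12.4% of windows) or the sterol element core (1.05%), which says only that these letters are not in these windows.

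Each sample was hybridised to 1 MOE430 V2 array, and values are linear signals of a probe set. The median signal of an array was 490.9 to 530.5, and with 3 arrays a group the precision of each value is limited. The labels do not state whether replicates came from different animals, so a p-value covers the spread among these samples alone, and that spread may be technical. Scap itself was read by a pair of probe sets. The brighter read 3080 to 7264 in controls and 1847 to 3286 in Scap_ko lungs, with overlap, at 55.9% of control (log2 difference -0.84, unadjusted p = 0.0426, limma adjusted p = 0.939). The other, below the brightness limit used here, read 74 to 648.4 and 169.5 to 325.2; whether either lies in the deleted stretch is not stated. Markers of lung were present: all 8 epithelial markers, among them Sftpc and Nkx2-1, and all 3 of lung mesenchyme, Foxf1, Tbx4 and Tbx5, lay above the brightness limit described next.

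A probe set was tested when its mean signal over the 6 arrays reached 512.3, the median of all probe sets, and 22519 did so. Of the 19 elastic fibre probe sets, 15 were tested, at least 1 for each of the 9 genes, and 4 were too dim. Differences are log2 signal in Scap_ko minus control with the standard error (SE) and 95% interval from limma, whose p-values were corrected over all 22519 probe sets (Benjamini-Hochberg). Signals of different probe sets are not set against each other, since each has its own brightness.

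None of the 9 elastic fibre genes changed by this test. By limma, adjusted p was under 0.05 for 0 of the 15 tested probe sets, where 0% of all tested probe sets did (smallest adjusted p 0.139 over all, 0.942 over the 15). At an unadjusted p of 0.05 the count was again 0 of 15, beside 5.23% of all tested probe sets. Differences ran from -0.31 (Eln) to 0.27 (Fbn2), 8 of them negative and 7 positive. Their median was -0.06, or 96.1% of control, and the median over all tested probe sets was 0.01. The intervals still allow changes of some size: the narrowest, for a Mfap2 probe set, ran from 78.6% to 107% of control, and the widest, for a Mfap5 probe set, from 67.6% to 185%. These intervals come from the fit without pairing by array number; with the number as a block the SEs of the Mfap5 probe sets were 0.12 and 0.20 in place of 0.30 and 0.31, and again 0 of 15 probe sets were called.

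**Figure D1:**
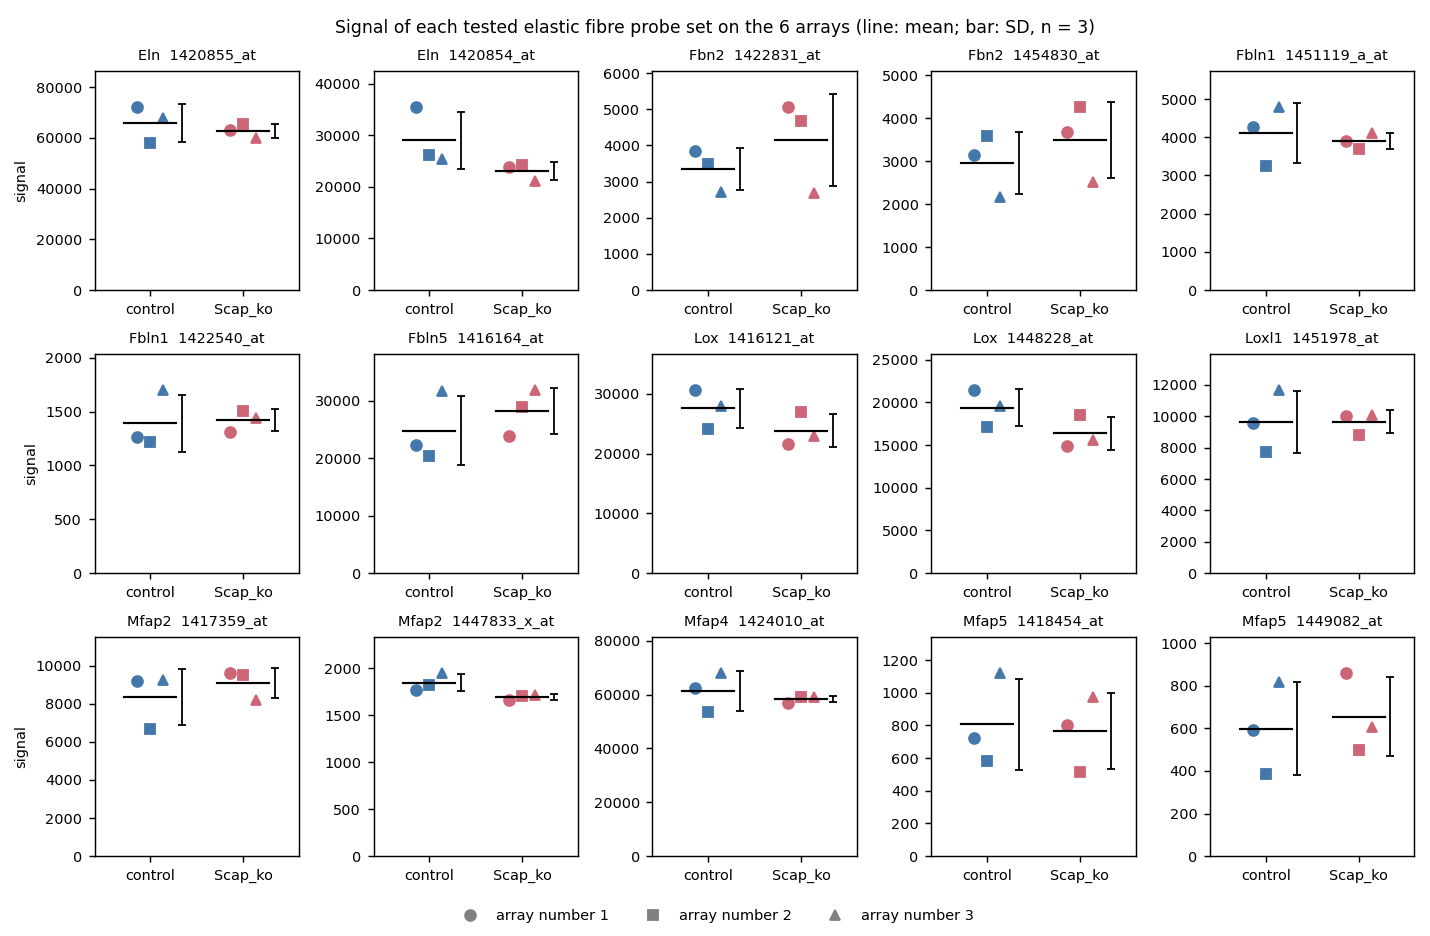
Signal (vertical axes from 0, each with its own range) of the 15 tested elastic fibre probe sets in control and Scap_ko lungs, with a marker shape for each array number, the mean as a line and the SD as a bar (n = 3). The groups overlap in all panels but those of Eln 1420854_at and Mfap2 1447833_x_at. The arrays numbered 3 are the lowest of their group for both Fbn2 probe sets and for Eln 1420854_at.

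Elastin was read by a pair of probe sets. On the brighter, 1420855_at, controls read 72118, 57838 and 67747 and Scap_ko lungs 63197, 65327 and 59891, in the order of replicates 1 to 3. All Scap_ko arrays lay between the lowest and the highest control. The means were 65901 ± 7317 and 62805 ± 2739 (SD, n = 3), a log2 difference of -0.06 (SE 0.12, interval -0.34 to 0.21, limma adjusted p = 0.979), and p was 0.5 in an exact permutation test (two-sided), which cannot go under 0.1 with 3 arrays a group. Without control replicate 1 the sign turned, to a difference of 0.00387.

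On the other elastin probe set, 1420854_at, controls read 35453, 26091 and 25455 and Scap_ko lungs 23855, 24297 and 21107. Here every Scap_ko array lay below every control, and the gap between the groups was narrow apart from the high control replicate 1. The means were 28999 ± 5598 and 23086 ± 1728, or 80.4% of control (log2 difference -0.31, SE 0.15, interval -0.68 to 0.05, unadjusted p = 0.0789, limma adjusted p = 0.942). The exact permutation p was 0.1, the smallest that this test without pairing can give. The Scap_ko array was the lower within each number, by 0.57, 0.10 and 0.27 on the log2 scale, and with the replicate number as a block the unadjusted p was 0.0501 and the limma adjusted p 0.592. In limma with a trend in eBayes the unadjusted p was 0.0412 and the adjusted p 0.96. The difference was -0.16 without control replicate 1. The Eln probe sets, which target the same gene, thus gave differences of -0.06 and -0.31, with a correlation of 0.70 between them over the 6 arrays.

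Fbn2, the fibrillin made mainly before birth, had the largest positive differences, and both of its tested probe sets varied with the array number. On 1422831_at, controls read 3845, 3495 and 2709 and Scap_ko lungs 5059, 4675 and 2688. The Scap_ko arrays numbered 1 and 2 were the highest of the 6, and the 2 arrays numbered 3 were the lowest and nearly level. The log2 difference was 0.27 (SE 0.26, limma adjusted p = 0.963). By array number it was 0.40, 0.42 and -0.01. With the replicate number as a block the SE was 0.13, the unadjusted p 0.0834 and the limma adjusted p 0.639. On 1454830_at, controls read 3141, 3585 and 2175 and Scap_ko lungs 3686, 4254 and 2518, so that the Scap_ko array was the higher within each number, by 0.23, 0.25 and 0.21 on the log2 scale. The difference of 0.23 had an SE of 0.25 from the fit without pairing and of 0.10 with the replicate number as a block, where the unadjusted p was 0.058 and the limma adjusted p 0.605. Leaving out 1 array moved it between 0.02 (without control replicate 3) and 0.45 (without Scap_ko replicate 3). On 1422831_at the difference lay between 0.10 without Scap_ko replicate 1 and 0.55 without Scap_ko replicate 3, the latter with an unadjusted p of 0.0195 and a limma adjusted p of 0.841.

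Among the fibulins, which tie tropoelastin to microfibrils and to cells, Fbln5 is needed for elastic fibres to form. Its bright probe set read 22304, 20396 and 31574 in controls and 23891, 28882 and 31781 in Scap_ko lungs. Control replicate 3 was as high as the highest Scap_ko array, and the groups overlapped. The log2 difference was 0.20 (SE 0.19, interval -0.25 to 0.66, limma adjusted p = 0.962), and the Scap_ko array was the higher within each number (by 0.10, 0.50 and 0.01). With the replicate number as a block the SE was 0.13, the unadjusted p 0.178 and the limma adjusted p 0.725. Leaving out 1 array moved the difference between 0.08 (without control replicate 2) and 0.39 (without control replicate 3, unadjusted p = 0.0431, limma adjusted p = 0.883); it was 0.11 without Scap_ko replicate 3. Fbln1, a fibulin of elastic fibres and basement membranes, read 4272, 3244 and 4787 in controls and 3896, 3680 and 4106 in Scap_ko lungs on its brightest probe set. The Scap_ko arrays lay inside the range of the controls, at 96.1% of control. Its next probe set stood at 103% of control (log2 difference 0.04, SE 0.15).

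Lox, the founding lysyl oxidase, was read by 2 tested probe sets that tracked each other closely over the 6 arrays (r = 0.99). On 1416121_at controls read 30584, 24160 and 27927 and Scap_ko lungs 21668, 26910 and 22970; on 1448228_at they read 21416, 17146 and 19567 against 14939, 18532 and 15593. In both, the Scap_ko array was lower in the arrays numbered 1 and 3 and higher in those numbered 2. The log2 differences were -0.21 (SE 0.14) and -0.24 (SE 0.13), 86.6% and 84.4% of control, with limma adjusted p = 0.955 and 0.942. Leaving out 1 array moved them from -0.13 (without control replicate 1) to -0.30 (without control replicate 2) on 1416121_at and from -0.17 to -0.34 on 1448228_at. None of the 15 settings run for 1416121_at and the 14 for 1448228_at turned the sign. Loxl1, the lysyl oxidase that works on elastin with Fbln5, read 9571, 7725 and 11663 in controls and 10033, 8832 and 10108 in Scap_ko lungs. Its means were nearly equal, 9653 ± 1970 and 9658 ± 716, a log2 difference of 0.02 (SE 0.16, interval -0.37 to 0.40).

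Of the microfibril-associated proteins, Mfap4, a partner of tropoelastin and fibrillin, read 62502, 53524 and 67881 in controls and 57034, 58907 and 59118 in Scap_ko lungs. The Scap_ko arrays stood close together inside the wider range of the controls, at 95.6% of control (log2 difference -0.06, SE 0.12, interval -0.34 to 0.21). Mfap2, a glycoprotein bound to fibrillin microfibrils, read 9173, 6669 and 9222 in controls and 9600, 9512 and 8204 in Scap_ko lungs, so the groups overlapped, with a difference of 0.14 (SE 0.16). Its dimmer probe set, 1447833_x_at, went the other way: 1769, 1820 and 1944 in controls against 1657, 1702 and 1716 in Scap_ko lungs, every Scap_ko array below every control, with a difference of -0.12 (SE 0.09, unadjusted p = 0.231). The Mfap2 probe sets correlated at -0.26 over the 6 arrays.

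Mfap5, the relative of Mfap2 that also binds fibrillin, was dim and the most variable. On 1418454_at controls read 720.9, 583.5 and 1119.6 and Scap_ko lungs 805.8, 516.2 and 975.1. On 1449082_at controls read 592.4, 383.3 and 819.1 and Scap_ko lungs 858.2, 498.8 and 607. In each probe set and each group the array numbered 2 was the lowest. The differences had opposite signs, -0.07 (SE 0.30) and 0.16 (SE 0.31).

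**Figure D2:**
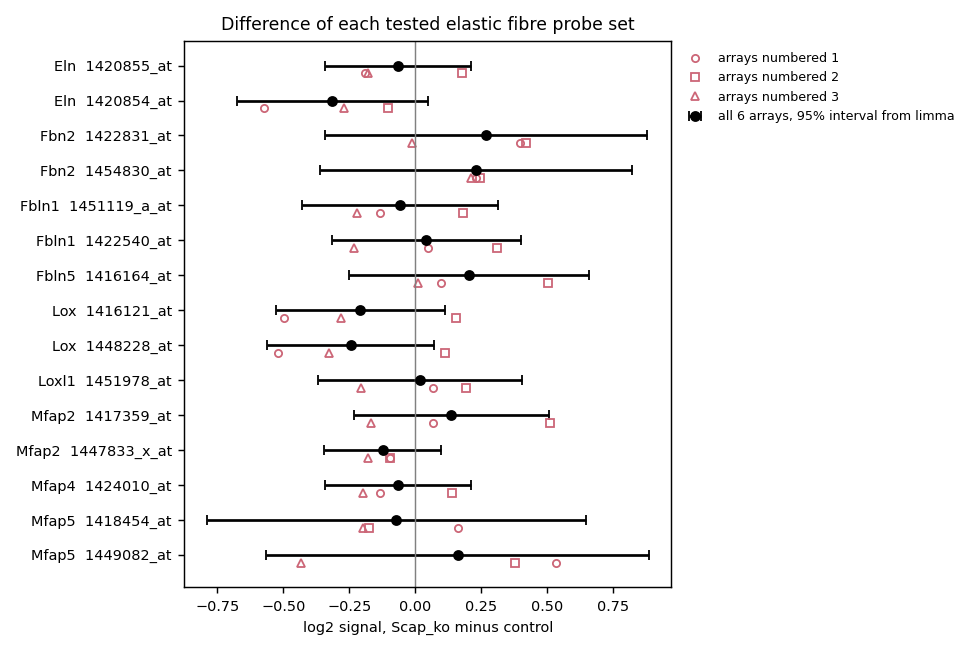
Log2 signal in Scap_ko minus control for the 15 tested elastic fibre probe sets. Black points and bars are the limma estimate over all 6 arrays and its 95% interval, from the fit without pairing. Open markers are the differences within each array number. Every interval includes 0. The arrays numbered 2 differ in sign from the others for both Lox probe sets, Eln 1420855_at, Fbln1 1451119_a_at and Mfap4 1424010_at.

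The groups did not overlap in 2 of the 15 tested probe sets, Eln 1420854_at and Mfap2 1447833_x_at, both lower in Scap_ko; of all tested probe sets 10.5% did not overlap in either direction and 5.22% did not with Scap_ko lower. This count turned on single arrays. Smaller groups separate more readily, and without control replicate 2 it was 7, all lower in Scap_ko: both Eln probe sets, both of Lox, Mfap4, Fbln1 1451119_a_at and Mfap2 1447833_x_at, where 11.5% of all tested probe sets separated with Scap_ko lower. It was 4 without control replicate 3 (2 lower and 2 higher, beside 21.7% of all in either direction), 4 without Scap_ko replicate 2 (all lower, beside 8.77% lower) and 5 without Scap_ko replicate 3 (2 lower and 3 higher, beside 21.8%). Without both arrays numbered 3 it was again 7, but with 2 lower and 5 higher, beside 35.1%; the 5 were both Fbn2 probe sets, Fbln1 1422540_at, Fbln5 1416164_at and Mfap2 1417359_at. Eln 1420854_at and Mfap2 1447833_x_at were among them each time, which was fixed in advance. Groups that do not overlap on all arrays cannot overlap once arrays are left out, so this count could only stay level or rise. The limma adjusted p of all 15 probe sets stayed above 0.05 in each of these fits, and the smallest was 0.662, without control replicate 2.

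The 4 probe sets below the brightness limit were not tested. Loxl1 1436063_at read 41.7, 90.2 and 155.4 in controls and 381.9, 400.3 and 313.7 in Scap_ko lungs, every Scap_ko array higher. The bright Loxl1 probe set showed no such gap. When all 45037 probe sets were tested, this Loxl1 probe set had an unadjusted p of 0.00656 and a limma adjusted p of 0.751. Lox 1437903_at read 237.3, 136 and 219.8 in controls and 271.6, 63.3 and 46.6 in Scap_ko lungs, with overlap. Fbln1 1439688_at read 470.3 to 541.2 and 372.3 to 479.6, and Fbln5 1446377_at 351.5 to 370.3 and 328 to 422.3. Without detection calls it is not known whether these signals lie above background.

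Most pairs of elastic fibre genes, by their brightest probe sets, varied together across the arrays. The same share was not computed over pairs of other genes. With each gene taken by its brightest probe set and set against its own mean over the 6 arrays, all 9 genes lay below their mean in control replicate 2, and 6 of the 9 had their lowest signal there. Of all 10960 tested genes, 58.1% lay below their mean on that array and 24.1% had their lowest signal there. The mean of the 9 genes was -0.24 in control replicate 2, 0.16 in control replicate 3, 0.05 in control replicate 1 and between -0.01 and 0.03 in the 3 Scap_ko arrays. The controls thus held both the lowest and the highest array of the list. Of the 36 pairs of genes, 29 correlated above 0 over the 6 arrays, with a median Pearson r of 0.51; the arrays share these deviations with many other genes, so this is a description. Fbln1 went most closely with Mfap4 (r = 0.95) and Loxl1 (0.94), and Eln with Lox (0.81). Fbn2 correlated below 0 with 6 of the other 8 genes, down to -0.66 with Mfap5, and above 0 with Mfap2 (0.37) and Eln (0.14).

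**Figure D3:**
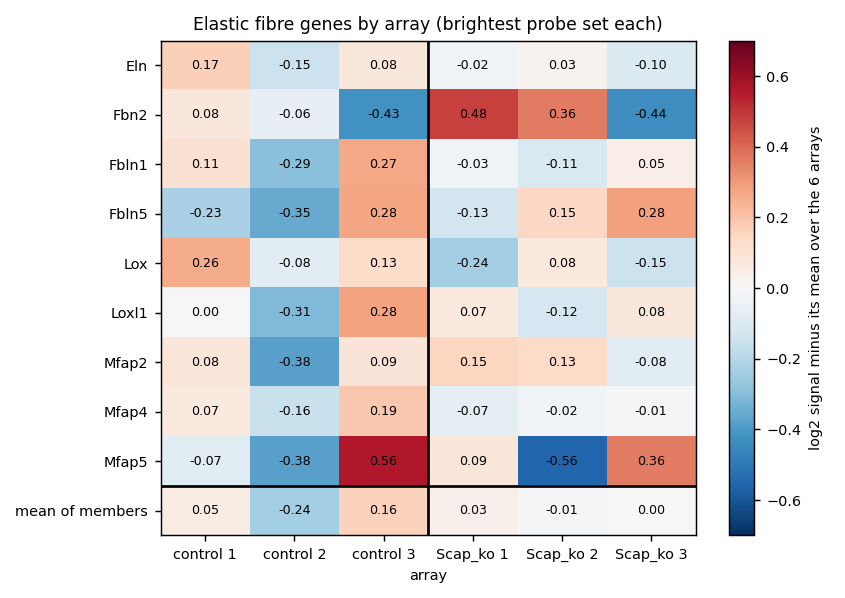
Log2 signal of each elastic fibre gene (brightest probe set, rows) on each array (columns) minus its mean over the 6 arrays, as colour and number, with the mean of the 9 genes in the last row. Control replicate 2 is below 0 for every gene, and Fbn2 is low in both arrays numbered 3 (-0.43 and -0.44) where Fbln5 is high (0.28 and 0.28).

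The arrays numbered 3 were set against the other 4 arrays, since Fbn2 was low on both. The contrast was thus chosen from the Fbn2 values, and it was not computed over all tested genes, so these differences are a description. Fbn2 read lower on them by 0.65 and 0.64 on the log2 scale by its probe sets, and by 0.44 within the controls and 0.86 within Scap_ko on the brighter. Fbln5 read higher by 0.42, with 0.57 within the controls and 0.27 within Scap_ko. Mfap5 was higher by 0.69 on 1418454_at (0.79 and 0.60) and by 0.34 on 1449082_at, where Scap_ko replicate 3 lay between the other Scap_ko arrays. For Loxl1, higher by 0.27, and Fbln1, higher by 0.24, most of it lay in the controls (0.44 and 0.36) and less in Scap_ko (0.10 and 0.12). Mfap4 was higher by 0.13, with 0.23 within the controls and 0.03 within Scap_ko. The brightest probe sets of Eln (0.07 in controls, -0.10 in Scap_ko), Mfap2 (0.24 and -0.22) and Lox (0.04 and -0.07) went opposite ways in the groups. The other Eln probe set, 1420854_at, read lower by 0.22 on the arrays numbered 3, which were the lowest of each group.

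The genes whose signal over the 6 arrays was most like the mean of the elastic fibre list, among 10951 tested genes outside it, were Mllt1, Prpf8, Actg2, Gstm2 and Sparc, with Pearson r from 0.98 to 0.99. Actg2 is a smooth muscle actin and Sparc a collagen-binding matrix protein. Actg2 read 3020, 1946 and 3528 in controls and 2722, 2613 and 2763 in Scap_ko lungs, low in control replicate 2 like the list. The genes most like Eln alone were Phax, Gabpb1, A630072M18Rik, Csnk1g2 and Cavin3, with r from 0.97 to 0.99. With 6 arrays and this many genes, values of this size are a description of the arrays.

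Markers of the cells that make elastic fibres had no called difference either. Of the 8 smooth muscle and myofibroblast markers, which include Acta2 and Myh11, 6 were tested, 3 higher and 3 lower, with a median at 101% of control, and their summed signal was 31269 to 39966 in controls and 36250 to 41242 in Scap_ko lungs. Acta2, smooth muscle actin, read 23255, 19858 and 19566 in controls and 26277, 22013 and 20220 in Scap_ko lungs (log2 difference 0.12, SE 0.14). The 8 matrix fibroblast markers, 4 higher and 4 lower, had a median at 99.9% of control and summed to 201803 to 237481 in controls and 222682 to 230762 in Scap_ko lungs. The 3 of lung mesenchyme, all lower, summed to 31486 to 33448 and 28009 to 31999.

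Markers of other cells were set beside these values, and their part in them was not tested. Lung epithelial markers, 3 higher and 5 lower of 8, summed to 289527 to 381712 in controls and 308843 to 345501 in Scap_ko lungs. The brightest markers weigh most in such a sum. At an unadjusted limma p of 0.05, 2 of the 8 were lower and 0 higher, beside 4.91% of all genes tested in either direction. These were Sftpb at 76.5% of control, with overlap, and Epcam at 77.3%, without overlap (limma adjusted p = 0.937 for each). Mesothelial markers, 1 higher and 3 lower of 4 tested, summed to 22071 to 23672 and 19665 to 23597. Endothelial markers, 1 higher and 5 lower of 6, summed to 58414 to 64797 and 53413 to 57950, so that every Scap_ko sum was the lower. The same held for leukocyte markers, 2 higher and 3 lower of 5 tested, with 62402 to 76954 and 41154 to 57910, most of it from Lyz2, which alveolar type II cells also make. All but Sox9 of the 7 cartilage markers were below the brightness limit. Heart muscle markers summed to 42705 to 52447 in controls and 43622 to 75560 in Scap_ko lungs. The atrial gene Nppa read 11125 in Scap_ko replicate 1 and 56.7 to 350.4 on the other 5 arrays. Without that array the difference of Eln 1420854_at was -0.34, and those of Fbn2 were 0.10 on 1422831_at and 0.17 on 1454830_at. The part of heart tissue in the other values was not tested.

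The wider pathway was examined through 5 lists with 65 genes, each gene by its brightest probe set. Of them 54 were tested and 0 were called in either direction by limma after adjustment; without adjustment, 2 were higher and 0 lower, 3.7% beside 4.91% of all genes tested. That count was 0 when any single array but Scap_ko replicate 3 was left out and 3 without Scap_ko replicate 3. It was 1 with the replicate block or with arrays centred on their median. At a brightness limit at the 75th percentile it was 4 of 43 tested. The share of all genes in these settings is not given here, so these counts have no background. With the block, the count over all 22519 tested probe sets rose from 1177 to 1898. Accessory proteins of microfibrils (LTBPs, EMILINs, further fibulins and ADAMTS-like proteins) had 7 higher and 8 lower of 15 tested, with a median at 94.6% of control. The smallest p was that of Ltbp3, which holds latent TGF-beta in the matrix, at 18886, 20395 and 17548 in controls and 28678, 23815 and 19281 in Scap_ko lungs (log2 difference 0.32, SE 0.16, limma adjusted p = 0.942). Its groups overlapped.

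Genes of crosslinking and precursor processing had 4 higher and 4 lower of 8 tested, with a median at 100.1% of control. Bmp1, the protease that cleaves the lysyl oxidase and collagen precursors, read 5572, 5930 and 5823 in controls and 6470, 7222 and 6720 in Scap_ko lungs, every Scap_ko array higher (log2 difference 0.24, SE 0.10, unadjusted p = 0.0461, limma adjusted p = 0.942). Among genes of elastin and microfibril turnover, 5 were higher and 1 lower of 6 tested, with a median at 107% of control. The smallest p was that of Timp2, a metalloproteinase inhibitor, at 11146, 10134 and 10395 in controls and 12211, 11607 and 13053 in Scap_ko lungs (log2 difference 0.22, SE 0.10, limma adjusted p = 0.942). The groups did not overlap for 4 of the 6, beside 10.5% of all tested probe sets: the inhibitors Timp1 at 117% and Timp2 at 116% and the membrane metalloproteinase Mmp14 at 112% of control were higher, and Timp3, the inhibitor bound to matrix, was lower at 86.2%. Their limma adjusted p lay between 0.942 and 0.948. The elastases Mmp12 and Elane were below the brightness limit; Mmp12 read 32.2 to 61.1 in controls and 106.3 to 128.3 in Scap_ko lungs.

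TGF-beta ligands, receptors, integrins and Smads had 8 higher and 7 lower of 15 tested, with a median at 103% of control. The smallest p in this list belonged to Itgav, the integrin chain that helps to activate latent TGF-beta, at 10251, 10388 and 10112 in controls and 11604, 10938 and 11784 in Scap_ko lungs. Every Scap_ko array was the higher, at 112% of control (log2 difference 0.16, SE 0.09, limma adjusted p = 0.948). Signals of septal myofibroblasts had 7 higher and 3 lower of 10 tested, with a median at 102%. Pdgfa, the epithelial growth factor that recruits elastin-making myofibroblasts to the septa, read 5807, 5510 and 5678 in controls and 6856, 7200 and 6423 in Scap_ko lungs. Every Scap_ko array was above every control (log2 difference 0.27, SE 0.10, unadjusted p = 0.028), and the limma adjusted p was 0.919. Its receptor Pdgfra read 20468, 16115 and 18615 in controls and 16204, 16721 and 22518 in Scap_ko lungs, at 99.8% of control.

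**Figure D4:**
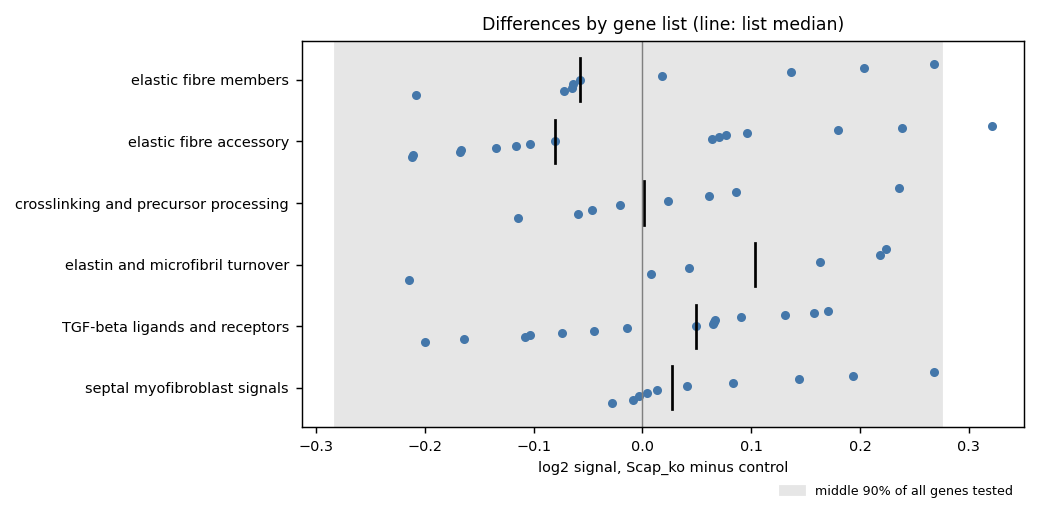
Log2 signal in Scap_ko minus control for the tested genes of the elastic fibre list and of the 5 related lists (points, brightest probe set per gene; vertical lines are list medians), on a grey band that spans the middle of all 10960 tested genes, from -0.28 to 0.28. By their brightest probe sets all elastic fibre genes lie inside the band, and Ltbp3 at 0.32 lies outside it. The dimmer probe set Eln 1420854_at, at -0.31, is not plotted and would lie outside.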

How the data were processed

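Whole-lung RNA was labelled and read on 6 MOE430 V2 arrays, as the labels' protocols say. The authors deposited intensity values, 1 linear signal for each of 45101 probe sets per array. The submitters' processing notes name RMA, but the values are linear, reach down to 0.2 and share a mean of 1500 after trimming 2% at either end, so the software and background correction stay unknown. No detection calls were used.

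Signals were turned to log2 with no pseudocount added, after 64 control probe sets had been dropped. Of those remaining, 34945 carried 1 symbol, 932 several and 9160 none. The 22519 probe sets whose mean signal reached the median (512.3) were fitted in R 4.3.3 with limma 3.58.1 (lmFit, eBayes), without covariates and with Benjamini-Hochberg adjustment over all of them at a threshold of 0.05. The 2 Eln probe sets were also tested by exact permutation. The steps were tested on simulated data.

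All genes of the list were named with every probe set, and from each related list the gene of smallest p, and the 5 genes most like the list mean and most like Eln. For cell type lists counts and summed signals are given. Sftpc, Sftpb, Epcam, Nkx2-1, Foxf1, Tbx4, Tbx5, Acta2, Myh11, Nppa, Cdh5, Lyz2 and Sox9 were named after their values were seen. The same holds for Timp1, Timp3, Mmp14, Mmp12, Elane and Pdgfra. Members and lists were chosen with earlier results of these data known. Deviations from the group means correlated at 0.22, 0.30 and 0.41 between arrays of the same number and at 0.04 at most between others across groups. The numbers in the titles were therefore taken to pair the samples, and the sources used here do not say what they stand for. The main fit and the exact tests do not use this pairing, and the fit with the number as a block is given as an alternative.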

Additional observations from a re-analysis of the deposited data

How the results depend on the processing

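Under 15 alternatives (no brightness filter or a limit at the 75th percentile, quantile normalization, centring of each array, a pseudocount of 50, the replicate block, leaving out each array or both arrays numbered 3, the brightest probe set per gene, and eBayes with a trend) 0 elastic fibre probe sets were called by limma, and 0 genes of the related lists under the 13 of them run for those; the smallest adjusted p of an elastic fibre probe set was 0.592, for Eln 1420854_at with the replicate block. With that block 0 of the 15 probe sets, 1898 of all 22519 passed an unadjusted p of 0.05, and 1 of all was called; it changed no adjusted call named in the text. Of 215 recomputed differences 16 turned sign and 199 did not, and 7 probe sets kept their sign throughout. Without both arrays numbered 3, Fbln1 1451119_a_at turned to 0.0244 and Mfap4 to 0.00308. Leaving out each array in turn took Eln 1420855_at from -0.16 to 0.00387, Fbln1 1451119_a_at from -0.22 to 0.0634, Fbln1 1422540_at from -0.0479 to 0.19, Loxl1 1451978_at from -0.13 to 0.16, Mfap2 1417359_at from -0.0182 to 0.22, Mfap4 1424010_at from -0.16 to 0.0126, Mfap5 1418454_at from -0.28 to 0.19 and Mfap5 1449082_at from -0.13 to 0.42, and the list median from -0.13 to 0.06. In these the cause was not tested. The brightness limit set aside 4 elastic fibre probe sets, and dim signals limit what those show.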
